A study of Triticum aestivum with 9 samples.

Results

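Of 61115 probe sets that read wheat transcripts, 164 changed only modestly in signal in wheat grain from 11 to 15 days post-anthesis. These 164, the members, then stood at least 2-fold lower at 20 days than at 15. On an Affymetrix array a probe set is a group of short oligonucleotides whose combined brightness, the signal, reports the level of one transcript or of a few related ones. Members were chosen by 4 limits on their own values. The mean log2 signal moved by less than 0.5 either way between the first and the second stage. It was lower by 1 or more at the third stage than at the second. All 3 arrays of the third stage lay below all 3 of the second, and the mean signal at the second stage was 500 or more. Probe sets of PsbP, rubisco (rbcl), PRK and TUBA were left out by name, which took away 4 that met the limits, 2 of PsbP and 2 of rubisco.

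The tissue was whole developing grain of bread wheat, Triticum aestivum, cultivar Jimai 20, a hexaploid cereal grown in field plots under ordinary farm management in Beijing. Grain was taken at 11 (P1), 15 (P2) and 20 (P3) days after flowering, with 3 biological replicates of each stage and thus 9 arrays. All groups share cultivar, season and site, and no treatment was applied. The replicates are described as plots, and nothing ties a plot's number to the same plot at another stage.

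In a filling wheat grain the starchy endosperm lays down starch and storage protein, the green pericarp around it photosynthesises and later loses its chloroplasts, and the embryo and aleurone acquire the proteins that let the seed dry out. Transcripts made in early filling are replaced stage by stage by those of maturation. Whole grain mixes these tissues, so fewer cells of a type and less RNA per cell cannot be told apart in any value given here.

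Because the rule used the signals of all 3 stages, the levels and steps of the members are a description and carry no test. The limits were met in sequence by fewer and fewer probe sets. A mean P2 signal of 500 or more was found for 12963, of which 8335 were flat from P1 to P2, 169 of these were lower by 1 or more at P3, and 168 of these had no overlap of arrays. With the limits turned round, 231 probe sets had a late gain after a flat start. An early loss followed by a flat step was found for 414, and a loss of 1 or more in both steps for 117, each with the same limits and the signal minimum set at the stage before the loss or after the gain.

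**Figure D1:**
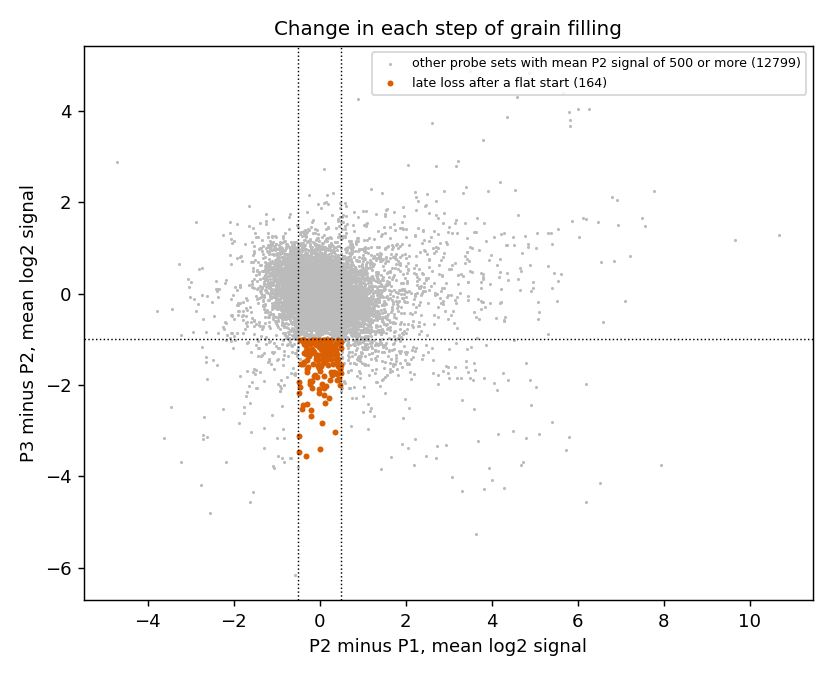
Each point is a probe set with a mean P2 signal of 500 or more, placed by its difference in mean log2 signal from P1 to P2 (horizontal axis) and from P2 to P3 (vertical axis). Dotted lines mark 0.5 either way and -1, and the 164 orange points fill the window between the lines, with most of them close to its upper edge.

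The median change of the members was 0.07 on the log2 scale from P1 to P2 and -1.32 from P2 to P3, which is a 2.5-fold lower signal. Over all 36669 probe sets bright enough to be tested the medians were 0.01 and 0.07. The fall from P2 to P3 lay between 1 and 1.5 in 103 members, between 1.5 and 2 in 40, between 2 and 3 in 16 and above 3 in 5. The group therefore consists mostly of modest losses, with a tail that reached 11.7-fold.

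The level of the whole group was steady over the first 6 arrays. The median log2 signal of the 164 probe sets was 10.88, 10.91 and 10.91 on the P1 arrays, 11.05, 10.90 and 10.97 on the P2 arrays and 9.47, 9.40 and 9.41 on the P3 arrays. The P1 and P2 arrays overlapped, and each P3 array stood more than 1 log2 unit below each of them. Replicate spread was small beside that step, with a median standard deviation of 5.97% of the mean at P1, 6.84% at P2 and 10.8% at P3.

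Flat here means small, not unmeasurably small. P2 lay above P1 in mean log2 signal for 92 members and below it for 72, and the difference was under 0.1 for 39. The 3 P1 and 3 P2 arrays overlapped for 79 members. They did not overlap for 85, with P2 the higher in 48 and the lower in 37. Among all probe sets tested 46.1% had P1 and P2 arrays without overlap, 22.8% with P2 the higher and 23.3% with P2 the lower. With limma, a linear model fitted to all tested probe sets at once, 57 members differed between P1 and P2 at an adjusted p under 0.05 with no limit on size, beside 34% of all probe sets. The rule used this step, and nothing is read from the counts.

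Between P2 and P3, limma placed all 164 members among its lower calls (adjusted p under 0.05 and at least 2-fold), where 2.77% of tested probe sets were called, and all 164 had no overlap of arrays, where 17.1% of tested probe sets had P3 below P2. Both follow from the rule. Set against P1, all 3 P3 arrays were below all 3 P1 arrays for 162 of 164 members, and for 21.2% of all probe sets tested. At least 2-fold lower signal at P3 than at P1 was called for 126 members, with 4.76% of all tested probe sets called lower. The rule itself puts every member's mean log2 signal at P3 more than 0.5 below P1, so these counts too are largely fixed by it. The change from P1 to P3 ran from -0.55 to -3.97 on the log2 scale.

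**Figure D2:**
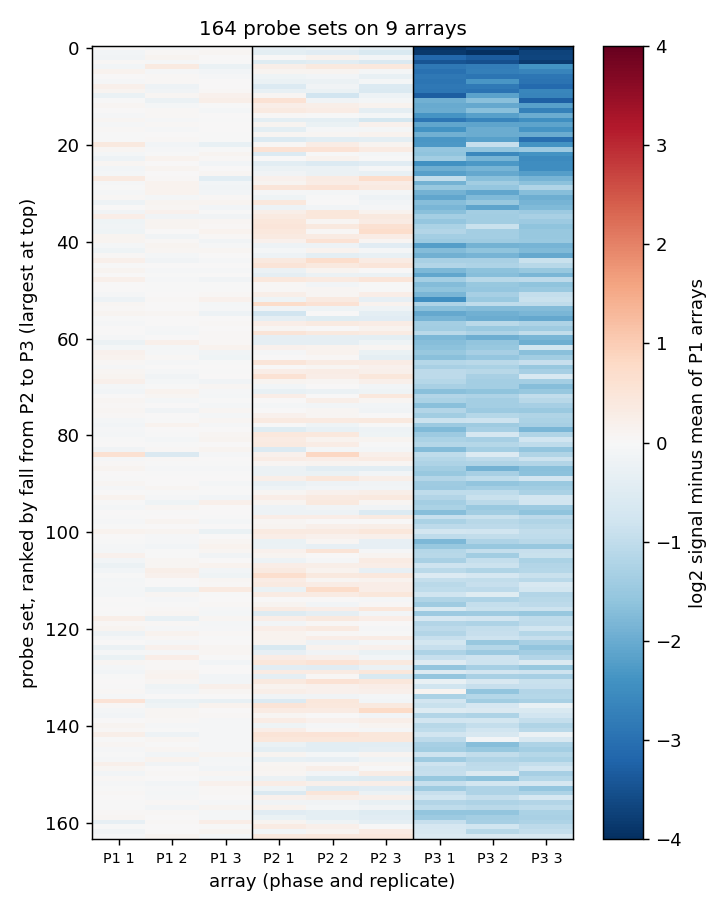
Rows are the 164 members, ordered by their fall from P2 to P3 with the largest at the top, and columns are the 9 arrays; colour gives log2 signal minus the mean of that row's P1 arrays. The P1 and P2 columns are pale, and the 3 P3 columns are blue in nearly every row, deepest in the upper 21 rows, whose fall was 2 or more.

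The values of arrays that took no part in a choice show how far the late loss repeats across replicates. The limits were applied with 1 replicate number of each stage left out, and the change was then read in the left-out arrays, 1 per stage, so no test was made. Leaving out replicate 1, the limits took 166 probe sets, 137 of them among the 164. On the left-out arrays their median change from P2 to P3 was -1.34, against -1.32 on the arrays that chose them. Of the 166, 165 were lower at P3 and 127 (76.5%) were lower by 1 or more, where 4.9% of similarly bright probe sets were.

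Leaving out replicate 2 gave 169 probe sets with a left-out median of -1.26, of which 167 were lower at P3 and 125 (74%) were lower by 1 or more (4.78% of bright probe sets). Leaving out replicate 3 gave 187 with a median of -1.23, of which 187 were lower at P3 and 125 (66.8%) were lower by 1 or more (5.03%). The late loss was thus about as deep in arrays that had not been used to find it. Each left-out P2 array still shares the offset of its stage in the control transcripts added before labelling, given below. The split therefore cannot separate a change of stage from a difference in labelling. The flat start was also seen there, although less sharply. From P1 to P2 the left-out arrays differed by less than 0.5 for 131 of 166, 131 of 169 and 155 of 187 probe sets, and for 62.3%, 60.3% and 63.4% of bright probe sets.

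Names were available for few members. The platform's annotation gives a gene symbol to 11 of the 164 probe sets (6.71%, beside 2.81% of all probe sets tested), which stand for 10 genes. Only 1 of the 10, LOC543219, has a synonym (UBC1 and UBC2) beyond its locus number. The other 9 are identified by locus alone, so no function is given for them. Signals of different probe sets depend on their own oligonucleotides and are not set against each other.

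Among the named genes the deepest loss was at LOC780623. Its signal was 4917, 5234 and 5213 on the P1 arrays, 5309.9, 5116 and 4890.0 on the P2 arrays and 997, 1132 and 1289 on the P3 arrays. The first 6 arrays lay within a narrow band, and the highest P3 array was far below it. The change from P2 to P3 was -2.17 on the log2 scale (SE 0.09), or 4.50-fold lower, after a difference of -0.005 between P1 and P2.

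LOC100037649 behaved alike. It was at 4074, 3717 and 4028 at P1, at 3484, 3909 and 3421 at P2 and at 924, 1146 and 1015 at P3, 3.51-fold lower than at P2. P1 and P2 overlapped and P3 lay apart. LOC780650 was at 484, 617 and 568, then 609, 572 and 553, then 248, 295 and 249.9, and 2.19-fold lower at P3 than at P2, again with P1 and P2 mixed.

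Both probe sets of LOC100037531 were members, and by their IDs both were designed on 1 sequence. The first was at 9393, 9650.0 and 9764 at P1, at 9624, 10043 and 10746 at P2 and at 3949, 3995 and 3379.8 at P3, a 2.69-fold lower signal. The second was at 7808, 7673 and 7639, then 8067, 8632 and 9125, then 3779.7, 3774 and 3217, a 2.40-fold lower signal. On both, P3 replicate 3 was the lowest array, and on the second P2 lay above P1 without overlap. A further 3 probe sets share the cluster number Ta.1082 but are assigned to the genes LOC100037645 and LOC543268, and none of these met the flat limit. From P1 to P2 Ta.1082.1.S1_x_at, Ta.1082.1.S1_a_at and Ta.1082.2.S1_x_at differed by 0.57, 0.68 and 0.72 on the log2 scale, and from P2 to P3 by -1.52, -1.40 and -1.67. All 5 probe sets of the cluster were lower at P3 than at P2 by 1 or more, and 2 of them were flat before.

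LOC542773 had a member and a non-member in the same way. Its member probe set was at 3305, 3736 and 4102 at P1, at 4958, 3805 and 5989 at P2 and at 1628, 1455 and 1300.5 at P3, 3.32-fold lower than at P2. The P2 arrays were spread widely and overlapped P1. A second probe set of the gene, Ta.2789.1.S1_a_at, had means of 4644 at P1, 8889 at P2 and 2459.7 at P3. It differed by 0.94 from P1 to P2 and by -1.85 from P2 to P3 on the log2 scale, and was no member.

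A further 4 named genes had P2 above P1 without overlap, within the limit of 0.5. LOC543127 was at 1654, 1370.5 and 1285 at P1, at 1901, 1819.7 and 2014 at P2 and at 558, 655 and 691 at P3, 3.02-fold lower than at P2. LOC732707 was at 3536, 3718 and 3764, then 4745, 4535 and 4409, then 1756, 1939 and 2359, 2.28-fold lower at P3 than at P2. Each has its P3 arrays below every P1 array. A second bright probe set of LOC732707, Ta.27660.1.S1_x_at, was just short of the fall limit, with means of 4634, 4562 and 2368 and a change of -0.95 on the log2 scale.

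LOC543167 was at 2147, 2069 and 2525 at P1, at 2746, 2552 and 2713 at P2 and at 1194, 1360.1 and 1403 at P3. Its change of -1.02 from P2 barely reached the limit. The other 3 probe sets of this gene changed by less, -0.72, -0.71 and -0.54 from P2 to P3, and were no members.

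LOC100037609 was at 12986, 14568 and 13835 at P1, at 17311, 17419.7 and 23656 at P2 and at 9554, 9276 and 8966 at P3. P2 replicate 3 stood well above the other P2 arrays, and the early difference of 0.48 was close to the limit. Its 2 other probe sets gave -0.995 and -1.27 from P2 to P3 and 0.33 and 0.75 from P1 to P2, so that 1 missed the fall limit by a hair and the other was not flat.

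LOC543219, with the synonyms UBC1 and UBC2, names that in plants are given to ubiquitin-conjugating enzymes, was the least precisely measured. Its member probe set was at 892, 384 and 566 at P1, at 652, 1023 and 661 at P2 and at 289, 395 and 252 at P3. P1 overlapped P2 and also P3, whose highest array lay above the lowest of P1. The change from P2 was -1.31 on the log2 scale (SE 0.28). Its other 2 probe sets did not share it, with means of 28132, 35461 and 29099.7 in one (-0.29 from P2 to P3) and 1048, 1095 and 961 in the other (-0.19). For this gene the pattern thus rests on 1 probe set of 3.

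**Figure D3:**
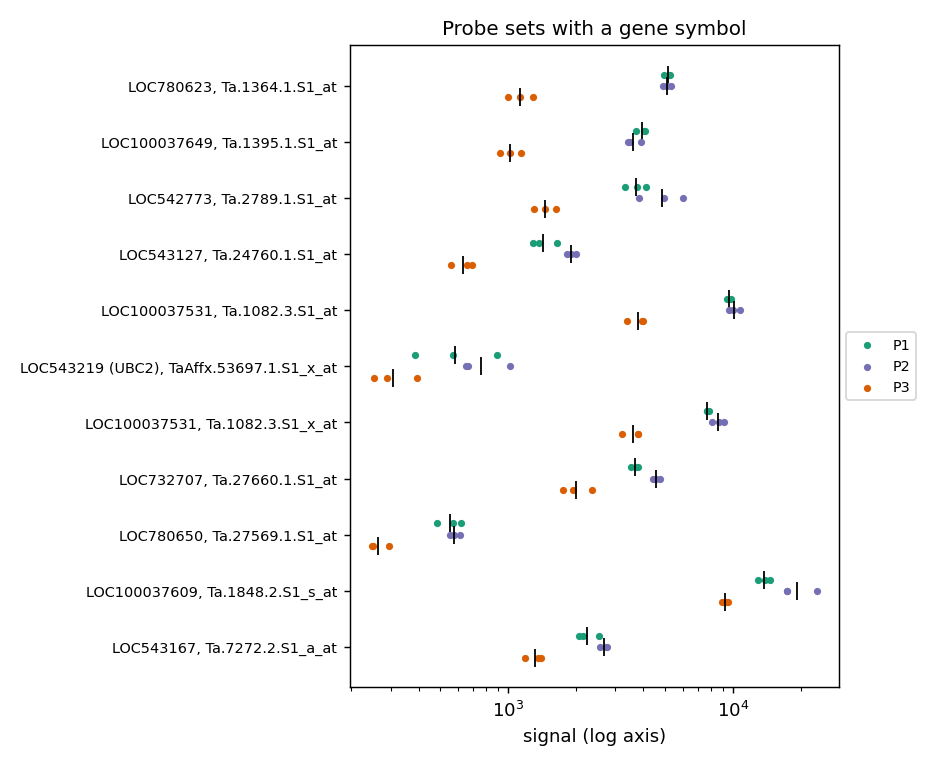
Signal (log axis) of the 11 member probe sets that have a gene symbol, ordered by their fall from P2 to P3, with 1 point per array and a bar at the mean log2 signal of the 3 arrays of each stage. P3 lies left of P2 in every row, and it overlaps P1 only for LOC543219 (UBC2).

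The other 153 members have no gene symbol in the annotation and are known by probe set ID only. The part of an ID before its second point numbers the sequence cluster from which the oligonucleotides were designed. By that number the 164 members come from 129 clusters, 101 with 1 member, 21 with 2 and 7 with 3, so they are not 164 independent transcripts. Members ending in _x_at or _s_at, which hold oligonucleotides that match other sequences on the array, numbered 50 and 17. They made up 30.5% and 10.4% of the members, 20.7% and 7.95% of probe sets with a P2 signal of 500 or more, and 14.5% and 5.68% of all tested. Their signals are the more open to related copies.

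The 5 deepest losses without a symbol were between 8.11-fold and 11.7-fold. Ta.1139.1.S1_at was at 3245, 3165 and 3307 at P1, at 2559, 2724 and 2515 at P2 and at 215, 243 and 211 at P3, a change of -3.55 on the log2 scale (SE 0.08) after one of -0.32. The partner Ta.1139.1.S1_x_at was at 3980.1, 3758 and 3840.2, then 2781, 2902 and 2607, then 352, 340.2 and 269. In both, P2 lay below P1 without overlap, so a small early decline came before the large late one. TaAffx.28555.1.S1_s_at did likewise, at 3438, 3873 and 3911 at P1, at 2822, 2735 and 2424 at P2 and at 256, 186 and 286 at P3, with an early change of -0.49 that just met the limit.

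Ta.7524.2.A1_x_at was level before it was lost. It was at 1268, 1488 and 1403 at P1, at 1388, 1539 and 1271 at P2 and at 156, 138 and 109 at P3, or 10.5-fold lower, and a second member of the cluster, Ta.7524.2.A1_a_at, had means of 1428, 1479 and 207. Another probe set of that cluster, Ta.7524.1.A1_at, with means of 4222, 2319 and 190.1, changed by -0.89 from P1 to P2 and by -3.59 from P2 to P3, and was no member. TaAffx.111710.1.S1_at was at 902, 1243 and 798, then 1132, 1269 and 1278, then 133, 142 and 183.

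Losses of 2 or more were found in 21 members, 13 of them lower and 8 higher at P2 than at P1. The median late change was -1.36 for members lower at P2 than at P1 and -1.29 for those higher. The rule bounds both changes and they share the P2 mean, so no relation between them is read from this.

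The 5 members with the highest P2 signal, all without a symbol, are measured far above background and lose between 2.20-fold and 6.45-fold. TaAffx.128712.18.S1_s_at was at 43234, 43466 and 39952 at P1, at 39348, 43899.5 and 42201 at P2 and at 18673, 17842 and 20603 at P3. Its P1 and P2 means, 42217 and 41816, differed by less than either standard deviation (1965 and 2300), while P3 lay at 19039 ± 1416 (SD, n = 3). Not every probe set of that cluster lost signal to this degree, since TaAffx.128712.2.S1_s_at had means of 39170, 37633 and 32514.

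Ta.28209.1.S1_a_at was at 37208, 42376 and 35697 at P1, at 37360.3, 36138 and 36337 at P2 and at 10242, 9162 and 11666 at P3, 3.55-fold lower. A second member of that cluster, Ta.28209.2.S1_x_at, lost more, from 28399, 29674 and 26219.8 at P2 to 4484, 4272 and 4303 at P3, after 32702, 33064 and 30985 at P1. The late changes of the pair were -1.83 (SE 0.09) and -2.69 (SE 0.07).

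Ta.24736.1.S1_at was at 30768, 36169.9 and 32009 at P1, at 26637, 27944 and 29202 at P2 and at 10358, 10752 and 11457 at P3. Ta.24737.1.S1_x_at was at 17753, 18422 and 18216, then 26016, 23714 and 25430.5, then 8130.4, 7668 and 8487. From P1 to P2 the former changed by -0.24 and the latter by 0.47, and neither P1 group overlapped its P2 group.

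**Figure D4:**
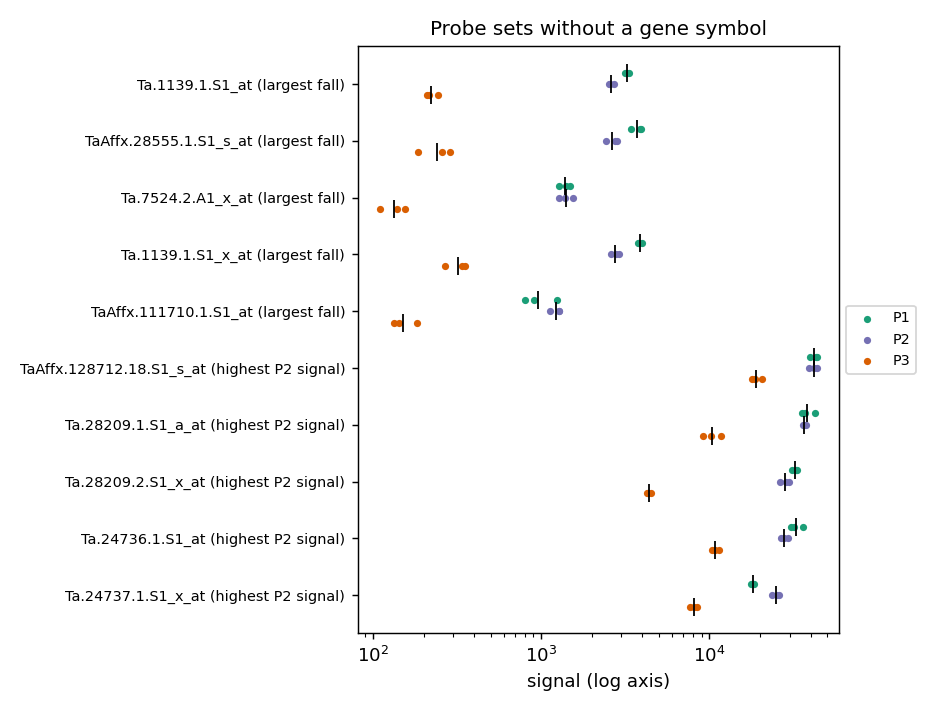
Signal (log axis) of 10 member probe sets without a gene symbol, the 5 with the largest fall and the 5 with the highest P2 signal, with 1 point per array and a bar at the mean log2 signal of each stage. The P1 and P2 points lie close together at the right and the P3 points apart at the left in every row.

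In the 28 clusters with 2 or 3 members the falls within a cluster spanned a median of 0.23 on the log2 scale, from 0.04 in Ta.3164 to 1.36 in Ta.20639. In the latter, Ta.20639.3.S1_x_at had means of 2298, 1918 and 371, while Ta.20639.1.S1_x_at had 5805, 4495 and 2198. The 2 members of Ta.6665 had means of 10076, 11654 and 2392 and of 10367, 11093 and 2654. These clusters were picked after their values were seen.

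Of the members' clusters, 58 held a further 223 tested probe sets that were no members, 2 of which, of rubisco, met the limits and were left out by name. By mean log2 signal 163 of them were lower at P3 than at P2, and 66 were lower by 1 or more (29.6%, beside 4.86% of all probe sets tested), with a median change of -0.61. Their median early change was 0.19. The clusters TaAffx.128418 and TaAffx.128414 alone held 93 of the 223, and without these 50 of 130 were lower by 1 or more (38.5%, median -0.83). Of the 66, 41 had been higher at P2 than at P1 by 0.5 or more and 13 lower by 0.5 or more. These probe sets share a cluster number with members and were read on the same arrays, so they are no independent check. A shared number does not always mean the same gene, since TaAffx.128418 holds probe sets of LOC606363, LOC542851 and LOC542778.

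At P3 most members were still measurable. The background level of an array was set at percentile 95 of its 64 reporter control probe sets, and lay between 89.4 and 153.3. At P3, 161 members were above it on all 3 arrays, and at P1 and P2 no member was below it on any array. Ta.21258.3.S1_a_at alone was below it on all 3 P3 arrays, at 99.4, 101.8 and 84.3 after 492, 663 and 495 at P2, so it was at least 5.0-fold lower, from the mean log2 signal of P2 against the mean of the background or the signal, whichever was higher on each P3 array. Ta.28728.1.S1_x_at and TaAffx.108107.3.S1_x_at were below it on 1 P3 array each.

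TaAffx.31481.1.S1_at, like LOC543219, did not keep P3 apart from P1. It was at 625, 567 and 636 at P1, at 714, 686 and 708 at P2 and at 662, 206 and 273 at P3. P3 replicate 1 lay above all 3 P1 arrays and just below P2, and the loss rests on the other 2 P3 arrays. These probe sets, and those under background, were singled out after their values were seen.

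The limits run through a continuous spread of values. Just inside the flat limit was TaAffx.132392.1.S1_at, with a change of 0.4999 from P1 to P2, and just outside was Ta.18647.1.S1_s_at with -0.502. For the fall they were Ta.5377.3.S1_a_at at -1.005 and Ta.9063.1.S1_x_at at -0.998. For the P2 signal they were Ta.28728.1.S1_x_at at 512 and Ta.1047.3.S1_a_at at 492. TaAffx.58699.1.S1_at met all limits but had overlapping P2 and P3 arrays.

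The tissue of origin of the members is not given by their names, and markers of the tissues in the grain moved in different directions over the same step. The green pericarp list (PsbO, PsbP, PRK and rbcl) fell in 7 of its 13 tested probe sets from P2 to P3 and none rose, where 2.77% of all tested probe sets fell. Its summed signal over 32 probe sets was 121978 to 134917 at P1, 120348 to 140761 at P2 and 70488 to 80695 at P3. The P1 and P2 ranges of the sum overlapped and P3 lay below. Most of the sum was rubisco, with P1 means of 60238 for Ta.24976.1.S1_x_at and 45993 for TaAffx.128414.1.A1_x_at. From P1 to P2, PsbO changed by -0.86, PRK by -0.48 and PsbP by -0.47 (Ta.85.1.S1_at) and 0.24 (TaAffx.120874.1.S1_x_at). The level course of the sum is therefore not that of each marker. The median change of its tested probe sets from P2 to P3 was -1.07.

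The 4 probe sets left out by name met the same limits, so their course was fixed by that choice. PsbP, which serves water oxidation in photosynthesis, had means of 1211 ± 131, 1422 ± 54.9 and 514 ± 45.6 (SD, n = 3) on one probe set and 8911 ± 366, 6473 ± 706 and 2400.1 ± 146 on the other. Rubisco was at 45993 ± 4488, 48707 ± 5655 and 23224 ± 2939.8 on one of its 2 probe sets. Other probe sets of rubisco did not all follow, and Ta.24976.1.S1_x_at changed by -0.57 and TaAffx.128896.17.S1_s_at by 0.69 from P2 to P3. The latter was dim, with means of 96.6, 92.9 and 141. Its P2 mean lay below the mean P2 background of 135, so no rise is read from it. A further 2 members, TaAffx.128414.176.S1_x_at and TaAffx.128896.22.S1_s_at, carry the cluster numbers of rubisco probe sets but no symbol, and had means of 522, 677 and 186 and of 919, 792 and 327.

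The embryo and aleurone list (EM, EMH2, Rab15, LEA1 and WGA2) rose in 9 of 10 probe sets from P2 to P3, where 4.46% of all tested probe sets rose. Its summed signal was 6583 to 6992 at P1, 41600 to 44818 at P2 and 228443 to 271026 at P3. The starchy endosperm list of gliadins, glutenins, avenin-like genes and GBSS-I had summed signals of 534022 to 606337, 478138 to 508849 and 571848 to 706212, with 2 of 18 probe sets higher at P3 and none lower by limma. No marker was at 0 on every array. The part that a changing share of these tissues has in the members' loss was not tested.

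The gene lists set by function hold no member, but they were matched by gene symbol and synonym. Of the members, 153 have no symbol and 10 only a locus name, so this absence was nearly fixed in advance and nothing is read from it. The only member with a synonym, that of LOC543219, matched no list. The rule also left out PsbP, PRK, rbcl and TUBA by name. Moreover, 4 of the 20 lists, the one for ubiquitin and proteolysis among them, matched no probe set. In the others, photosynthesis fell in 7 of 14 tested probe sets from P2 to P3, and cytoskeleton in 1 of 12, beside 2.77% of all tested probe sets. The 7 are those already counted in the green pericarp list, and the 4 left out by name are among them. PsbO (LOC543291), also among them, had values of 8286, 4567 and 1703. Another of the 7, TaAffx.128414.72.S1_at, was dim, with means of 71.7, 99.0 and 28.3 below mean backgrounds of 94.1, 135 and 109. Rises were called for 8 of 9 probe sets of late embryogenesis and desiccation proteins, 2 of 11 inhibitors and 1 each of 12 redox enzymes, 18 histones and 5 transporters, beside 4.46% of all tested probe sets. The redox call was a dim probe set of CAT1, with means of 54.1, 29.6 and 94.4 below the same backgrounds. A brighter probe set of CAT1 had means of 818, 509 and 341. In 9 further lists limma called none of 29 tested probe sets, although 16 had an unadjusted p under 0.05. Of these lists cell wall had the lowest median change from P2 to P3, -0.86 over 2 probe sets, followed by amino acid and nitrogen metabolism with -0.64 over 2 and starch synthesis with -0.46 over 4.

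The step at which most of the members' loss falls depends on whether the arrays are scaled to the poly-A controls. Bacterial poly-A transcripts are added to the RNA before labelling, and relative to their mean over the arrays their log2 level averaged -0.25 ± 0.05 on the P1 arrays, 0.63 ± 0.03 on the P2 arrays and -0.38 ± 0.01 on the P3 arrays (SD, n = 3). The log2 ratio of their 3-prime to 5-prime signal was 2.06 ± 0.07, 1.47 ± 0.04 and 2.05 ± 0.07. The P2 arrays therefore stood apart on both measures, and P1 and P3 were close on the ratio. A difference at P2 in the amount of controls added, in labelling or in the mRNA content of the RNA cannot be told apart here. Hybridization controls, added after labelling, were at -0.10 ± 0.27, 0.03 ± 0.18 and 0.07 ± 0.16.

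When each array was scaled to the poly-A controls, the median of the members became -0.81 from P1 to P2 and -0.31 from P2 to P3, and the median of all tested probe sets became -0.87 and 1.07. Scaled this way, 162 of the 164 members were still lower at P3 than at P2. Only 14 probe sets met the limits on that scale, and none of them was among the 164. The members' late median minus that of all tested probe sets was -1.39 on both scales, because scaling moves every probe set of an array by the same amount. From P1 to P3 the members' median was -1.34 as deposited and -1.22 scaled to the poly-A controls. Their loss between the first and the last stage was therefore close on both scales, while the stage at which it happened is relative to the other transcripts on the array.

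**Figure D5:**
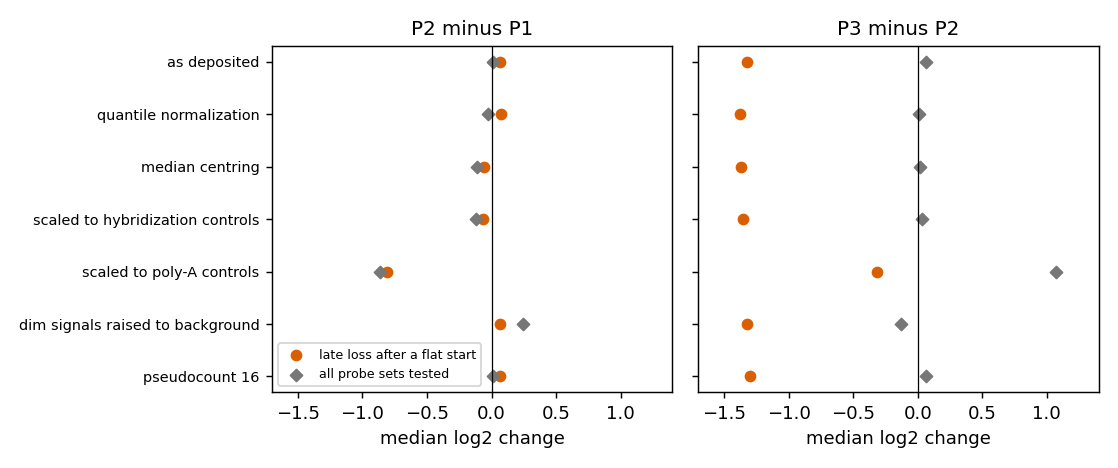
Median log2 change of the 164 members (circles) and of all 36669 tested probe sets (diamonds) from P1 to P2 (left) and from P2 to P3 (right), under 7 ways of scaling or treating the signals. The members lie near 0 on the left and between -1.30 and -1.38 on the right, except when scaled to the poly-A controls, where they are at -0.81 and -0.31.

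No sequence of a member was used here, so the transcripts are shown by their probe set IDs and signals alone.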

How the data were processed

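The values are the authors' deposited probe set signals of 9 arrays, linear intensity computed with MAS5, per the submitters' processing notes. MAS5 scales each array separately, and the trimmed mean (2% off each end) was 500.1 on all 9. Control probe sets (175) were left out. Groups came from sample titles.

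Signals were taken to log2 with a pseudocount of 0. limma 3.58.1 in R 4.3.3 was fitted to the 36669 probe sets left after dropping the lowest 40% by mean log2 signal, with stage as factor, an intensity trend and Benjamini-Hochberg adjustment, and was tested on simulated data. Calls require both a 2-fold difference and an adjusted p below 0.05, and SE is limma's. Rose and fell of lists are such calls. Errors of signals are SDs of 3 arrays, whose number limits precision. Same-numbered arrays of different stages did not deviate together (r from -0.05 to 0.03 over 9 pairs). No pairing by number was therefore seen, and the main fit used none. Each r is over all tested probe sets and cannot exclude pairing in a few of them.

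Gene symbols came from the platform annotation of 1273 probe sets, with 770 of 771 genes matched to the RefSeq table of assembly IWGSC CS RefSeq v2.1. Named were members with a symbol, the 5 largest falls and 5 highest P2 signals without one, and those next to a limit. The members, lists and limits were chosen with earlier results of these data known. Promoter motifs were not analysed here.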

Additional observations from a re-analysis of the deposited data

How the results depend on the processing

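The count of 164 probe sets ranged from 159 to 171 when single arrays were left out, with 143 to 160 of them among the 164. It was 188 under quantile normalization (159 shared with the 164) and 187 under median centring (150 shared). Scaled to the hybridization controls it was 178 (147 shared), and with a pseudocount of 16 it was 161 (158 shared). Leaving out single arrays, the median change from P2 to P3 stayed between -1.34 and -1.30 and that from P1 to P2 between 0.04 and 0.08. The early median was -0.056 under median centring and -0.064 scaled to the hybridization controls, so its sign is not settled. Scaled to the poly-A controls, 14 probe sets met the limits, 21 members and 191 of all tested probe sets were called lower from P2 to P3, and the medians were -0.81 (P1 to P2) and -0.31 (P2 to P3). With the poly-A 3-prime to 5-prime ratio as a covariate, 32 members and 150 of all probe sets were called lower from P2 to P3, against 164 and 1016; the members' median was then -1.55 with a median SE of 0.49 instead of 0.11, since the ratio nearly follows P2. The number of members called lower at P3 than at P1 was 126, beside 1746 of all tested probe sets. With that covariate it was 127 beside 1769, and scaled to the poly-A controls 110 beside 1363. With the P1 and P3 arrays alone, an alternative chosen after seeing the data, it was 126 beside 1766. The rule largely fixes these counts of members. With the replicate block, 164 members were called lower at P3 than at P2 and 126 lower than at P1, and 1004 and 1729 of all tested probe sets, so it changed no member's count. Depth does not apply to arrays; signal over background limits 3 members at P3.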
